A study of Mus musculus with 24 samples.

Results

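The postnatal maturation of mouse retinal pigment epithelium (RPE) was followed by comparing 4 control libraries made at 3 months of age (3M) with 4 control libraries made at postnatal day 11 (P11). All 8 control libraries at these ages entered, chosen by the genotype and age in their labels, of 24 libraries in the series. The series also holds 4 control libraries at postnatal day 29 (P29) and 12 libraries of mutant mice, 4 at each of the same 3 ages. RNA came from isolated RPE cells and was counted near the 3′ end of polyadenylated transcripts, so that a transcript gives about 1 tag whatever its length. Control animals were positive for the Cre recombinase driven by Dct, a pigment cell gene also active in the RPE, and thus carried the driver at both ages. Mutant animals carried the same driver with a floxed Ift20 gene, whose product belongs to the machinery that carries cargo along cilia. The strain background was mixed, no treatment was given, and sex was not collected. The labels call the libraries biological replicates but do not say whether each was made from 1 animal or from a pool, so p-values measure only how far these libraries scatter, which may be technical scatter.

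The RPE is a single layer of pigmented cells between the photoreceptors and the choroid. It regenerates the 11-cis-retinal that photoreceptors need to detect light, takes up the tips of their outer segments every day, moves ions, water, glucose and lactate between retina and blood, and lays down part of the underlying Bruch's membrane. In mice the eyes open and the photoreceptors extend their outer segments in the weeks after birth, so P11 lies before the retina is functionally mature and 3M is a young adult age.

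Between these ages the transcript pool of the RPE isolates differed extensively, in genes of the RPE and in markers of other cell types. The parts of the RPE and of other cells in these counts were not told apart. Of 12303 genes tested, 2459 (20%) were higher and 2911 (23.7%) lower at 3M at an adjusted p under 0.05 in the quasi-likelihood test of edgeR with Benjamini-Hochberg adjustment, 5370 (43.6%) in all. In 2045 genes (16.6%) every 3M library lay above every P11 library, and in 2365 (19.2%) every 3M library lay below. The falls were larger than the rises: the median log2 fold change was 0.95 among genes called higher and -1.92 among genes called lower, and 737 falls against 68 rises exceeded 10-fold. The genes called lower were scarcer, with a median of 27.5 CPM at P11, against 75.6 CPM at 3M for those called higher. The part of this in the fold sizes was not tested, and a gene with no count at 1 age has no measured ratio. The median over all genes tested was -0.05. Levels are given throughout as CPM (a gene's counts divided by the library total and multiplied by 1e+06), scaled by TMM factors, and log2 fold changes are 3M minus P11. Since so many genes were called, a list is described by its members called in each direction beside these shares, with no test of the list, and by the median log2 fold change of its tested members.

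**Figure D1:**
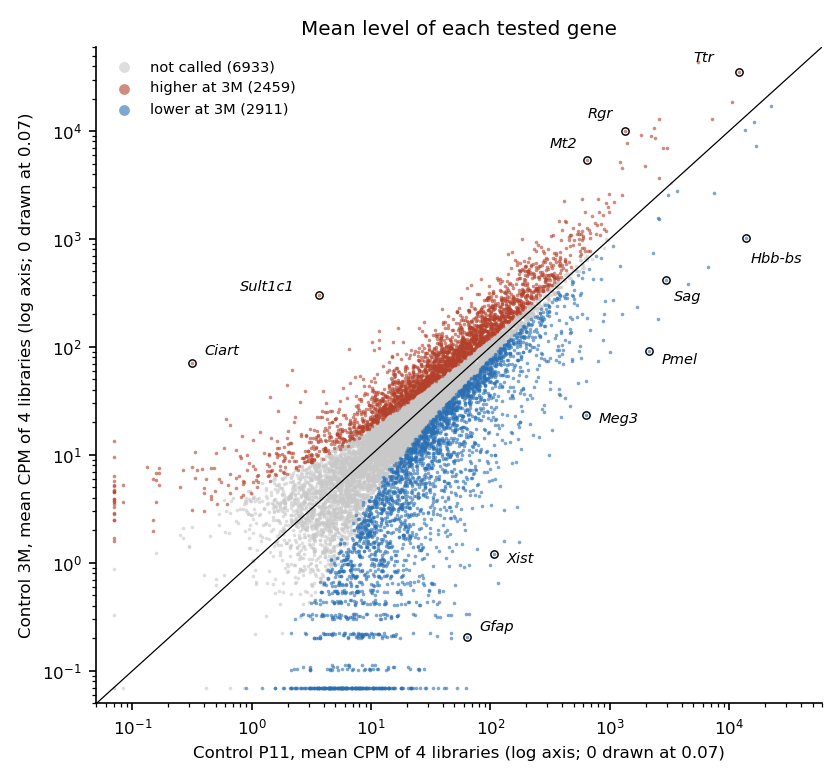
Mean CPM of each of the 12303 tested genes in the 4 control 3M libraries (vertical, log axis) against the 4 control P11 libraries (horizontal, log axis), coloured by the edgeR call, with the line of equal level. The 2911 genes lower at 3M spread far below the line, including many with no count at 3M, while Rgr, Mt2 and Ttr lie above it.

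The libraries differed between ages in more than RPE genes. Total gene counts ran from 1513440 to 2889946 over the 8 libraries. Mitochondrial transcripts took 4.83% ± 0.392 of gene counts at 3M and 7.81% ± 0.703 at P11, reads in no annotated feature took 19.3% ± 0.342 of entries at 3M and 23.4% ± 0.577 at P11, and the 10 most counted genes took 25.8% ± 0.639 at 3M and 29.8% ± 0.361 at P11 (SD, n = 4 each; two-sided exact permutation p = 0.0286, the smallest that 70 assignments allow, and 0.040 adjusted over 7 measures, for each). With reads in no annotated feature added to the denominator, the mitochondrial difference was -1.49 percentage points in place of -2.98. The part these shares have in the results below was not tested.

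The sex-linked transcripts Xist and Ddx3y also moved with age. The sex-linked genes given here were chosen after their values were seen. Xist, the RNA of the inactive X chromosome in female cells, had 0, 0, 11 and 0 counts in the 3M control libraries, against 418, 133, 141 and 220 counts in the P11 control libraries. The Y-linked gene Ddx3y was present in all 8, at 172 to 192 CPM at 3M and 72.8 to 102 CPM at P11. The Y-linked genes Eif2s3y, Kdm5d and Uty had overlapping libraries between ages. Eif2s3y had 19.9 to 30.3 CPM at 3M and 15.4 to 28.4 CPM at P11. Kdm5d had 21.8 to 27.8 CPM at 3M and 13.2 to 23.1 CPM at P11. Uty had 32.4 to 55.4 CPM at 3M and 28.2 to 41.1 CPM at P11. Of 5 tested genes of chromosome Y, 1 was higher and 1 lower. Y-linked transcripts were thus present at both ages, and 3 of the 4 3M libraries had no Xist count. Every P11 control library held both Xist and Y-linked transcripts, which a single animal of either sex would not give. Age and sex makeup cannot be told apart among the controls. In the mutant libraries Xist moved the other way, with 425 to 479 CPM at 3M and 207 to 223 CPM at P11. Ddx3y was counted in each of these mutant libraries as well. On the autosomes alone, 2387 genes were higher and 2812 lower.

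Transcripts of most other cell types, from marker lists, were scarcer at 3M. RPE markers summed to 62726 to 65418 CPM at 3M and 20687 to 21557 CPM at P11, with 9 of 11 tested members higher, and the lower ones were the melanosome genes Pmel and Tyrp1. Rod markers summed to 4555 to 4979.9 CPM at 3M and 13705 to 15078 CPM at P11, and 13 of 16 were lower. The rod arrestin Sag was lower at -2.83 (SE 0.06), while the calcium sensors Guca1a and Guca1b were higher, the first by 1.95 (SE 0.19) and the second by 0.43 on the log2 scale (SE 0.13, and no call, at 0.40, with only the 8 libraries compared). Of 8 tested cone markers 6 were lower, among them the blue cone opsin Opn1sw at -2.72 (SE 0.23). Erythrocyte markers summed to 2081 to 2209.9 CPM at 3M and 26967 to 29054 CPM at P11, and all 6 were lower, the beta-globin Hbb-bs averaging 1024 ± 32.5 CPM at 3M and 13894 ± 769 CPM at P11 (SD, n = 4). All 13 endothelial markers were lower, from a sum of 21.01 to 37.0 CPM at 3M and 499 to 536 CPM at P11, and 2 of them had no count at 3M.

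Further lists had sums as follows. Myelin markers summed to 45.6 to 67.9 CPM at 3M and 362 to 485 CPM at P11, with 6 of 6 lower, and skeletal muscle markers to 2.95 to 7.68 CPM at 3M and 64.3 to 99.6 CPM at P11, with 4 of 4 lower. Inner retinal neuron markers had 13 of 14 lower, with sums of 684 to 785 CPM at 3M and 1045 to 1172 CPM at P11 and 4 of 15 members at 0 at 3M. Fibroblast markers had 9 of 11 lower, with sums of 666 to 1358 CPM at 3M and 3332 to 3586 CPM at P11. Macrophage markers split, with 7 of 12 lower and 2 higher: the microglial receptor Cx3cr1 averaged 4.204 ± 1.06 CPM at 3M and 55.6 ± 8.50 CPM at P11, whereas the receptor Csf1r averaged 503 ± 39.4 CPM at 3M and 176 ± 15.3 CPM at P11. Of 15 lens crystallins and other lens genes 11 were lower and 6 had no count at 3M, while Cryab, a small heat shock protein also made by the RPE, was higher at 1.17 (SE 0.09). The summed levels of macrophage markers (588 to 674 CPM at 3M, 415 to 473 CPM at P11), Schwann cell markers (361 to 430.03 CPM at 3M, 211 to 292 CPM at P11), Müller glia markers (12878 to 13955 CPM at 3M, 5516 to 5847 CPM at P11) and lens genes (436 to 470.3 CPM at 3M, 321 to 369.8 CPM at P11) were higher at 3M although lower members were as many or more. In the Müller glia list, whose median was -1.22, 4 of 7 members fell and the sum was carried by Clu (6973 CPM at 3M and 3027 CPM at P11 on average), Glul (1794 CPM at 3M and 981 CPM at P11) and Rlbp1 (4566 CPM at 3M and 1262 CPM at P11), the last also a visual cycle gene of the RPE. None of 6 lymphocyte markers reached the level tested. In RNA of bulk isolates, fewer cells of a type and less RNA per cell cannot be told apart.

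**Figure D2:**
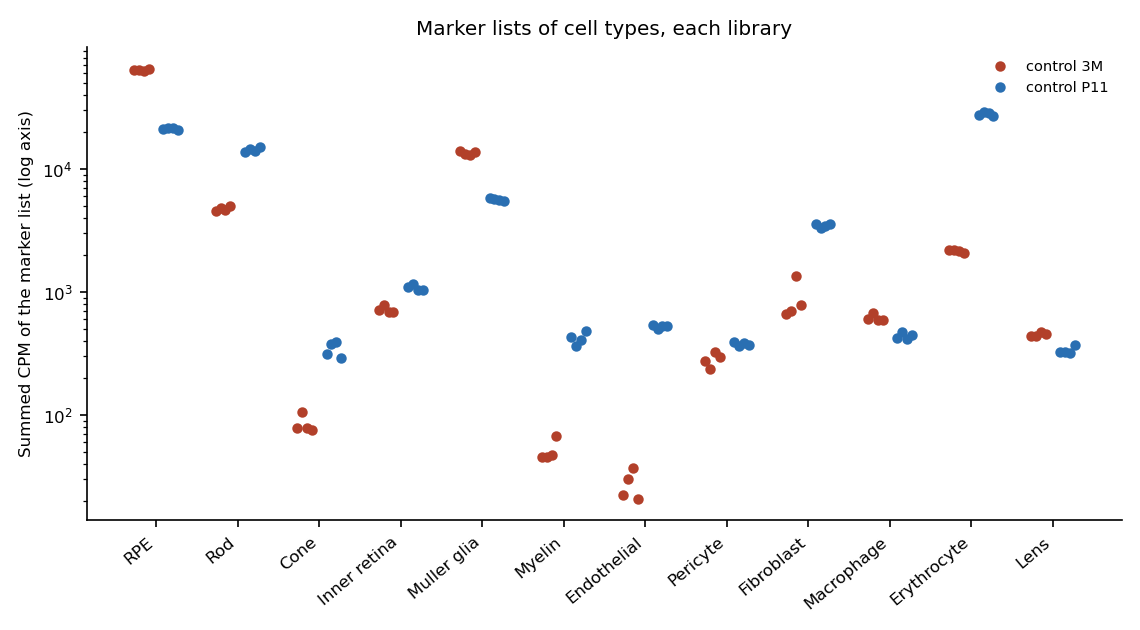
Summed CPM of 12 marker lists in each control library (points, log axis), the 3M libraries left and the P11 libraries right within each list. RPE and Müller glia sums are higher at 3M, the glial sum through Clu, Rlbp1 and Glul, and erythrocyte, endothelial, myelin and rod sums are lower at 3M, with no overlap between ages.

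A single 3M library, replicate 3, held more stromal transcripts than the others. Its fibroblast sum was 1358 CPM, and Col1a2, a type I collagen chain, had 147, 146, 366 and 147 CPM at 3M, against 1250.3, 1209, 1257 and 1391 CPM at P11. The type III collagen Col3a1 had 29.03, 28.9, 97.2 and 31.5 CPM at 3M and 585, 451, 607 and 530.3 CPM at P11. Both remained lower at 3M in every library, and the log2 fold change of Col3a1 was -3.54 with all libraries and -4.18 without 3M replicate 3. Without this library the count of members called in either direction moved by at most 1 in every list.

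The machinery that recycles visual pigment had the largest share of members called higher among the pathway lists. Of 12 genes of the visual cycle and of retinol carriage, all of them tested, 11 rose and 0 fell, with a median log2 fold change of 1.58, and their summed level was 72835 to 75758 CPM at 3M and 21454 to 22374 CPM at P11. The exception was the plasma retinol carrier Rbp4, with 0, 2.26, 0.872 and 6.06 CPM at 3M and 5.35, 5.41, 5.70 and 0 CPM at P11 (edgeR adjusted p = 0.54). The sequences upstream of Rpe65 and Rgr are shown because both genes are central to this list and because TAATCC, the core bound by the homeodomain factors OTX2 and CRX, lies in both windows. They are the 250 bases before the RefSeq gene start in GRCm38, written 5′ to 3′ on the gene's strand, with capitals marking TAATCC and, for Rpe65, CATGTG, a sequence bound by basic helix-loop-helix factors such as MITF, on either strand.
Rpe65, chr3:159598931-159599180, plus strand: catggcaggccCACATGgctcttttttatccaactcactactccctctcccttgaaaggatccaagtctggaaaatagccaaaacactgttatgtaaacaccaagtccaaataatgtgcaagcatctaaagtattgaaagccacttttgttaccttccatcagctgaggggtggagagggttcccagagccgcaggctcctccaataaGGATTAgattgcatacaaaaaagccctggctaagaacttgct
Rgr, chr14:37049015-37049264, minus strand: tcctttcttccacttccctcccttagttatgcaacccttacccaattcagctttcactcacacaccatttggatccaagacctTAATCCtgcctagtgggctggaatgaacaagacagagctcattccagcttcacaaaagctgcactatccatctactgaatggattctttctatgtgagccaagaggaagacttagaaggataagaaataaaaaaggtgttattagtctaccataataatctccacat

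In the Rpe65 window the TAATCC match began 42 bases and the CATGTG match 239 bases before the gene start, and in the Rgr window the TAATCC match began 167 bases before it. Promoter windows were found for 9 of the 12 genes, TAATCC in 2 of them, which were these, and CATGTG in 2, Rlbp1 and Rpe65. Of 32851 mouse promoter windows of the same length, 6.25% held TAATCC and 12.3% held CATGTG on either strand. A match describes the letters only.

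Rpe65, the isomerase that makes 11-cis-retinol and lies on chromosome 3 from 159599175 to 159625321 on the plus strand of GRCm38, had 8765, 8859, 8253 and 8395 CPM at 3M, against 2420, 2424, 2396 and 2407 CPM at P11. Every 3M library lay above every P11 library, a 3.55-fold rise (log2 fold change 1.83, SE 0.04, edgeR adjusted p = 5.2e-60). Lrat, which esterifies retinol to give that isomerase its substrate, had 2220, 2023, 2442 and 2263 CPM at 3M and 471, 369, 381 and 438 CPM at P11. Its rise was 5.38-fold, again with no overlap (log2 fold change 2.43, SE 0.07, edgeR adjusted p = 3.7e-55). Rgr, an opsin of the RPE that acts on all-trans-retinal, had 10096, 9750, 10055 and 10448 CPM at 3M and 1340.5, 1436, 1228 and 1362 CPM at P11. At 7.52-fold it showed the largest rise of the list (log2 fold change 2.91, SE 0.05, edgeR adjusted p = 2.0e-74). Its level at P29, 5521 CPM, lay between those of P11 and 3M, whereas the P29 level of Rpe65, 7667 CPM, was near that of 3M. Rdh5, the dehydrogenase that completes the cycle, rose 4.26-fold, Rlbp1, the retinaldehyde-binding protein, 3.62-fold, and the thyroxine and retinol carrier transthyretin (Ttr) 2.92-fold, to 35232 ± 1108 CPM at 3M, against 12067 ± 313 CPM at P11 (SD, n = 4).

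**Figure D3:**
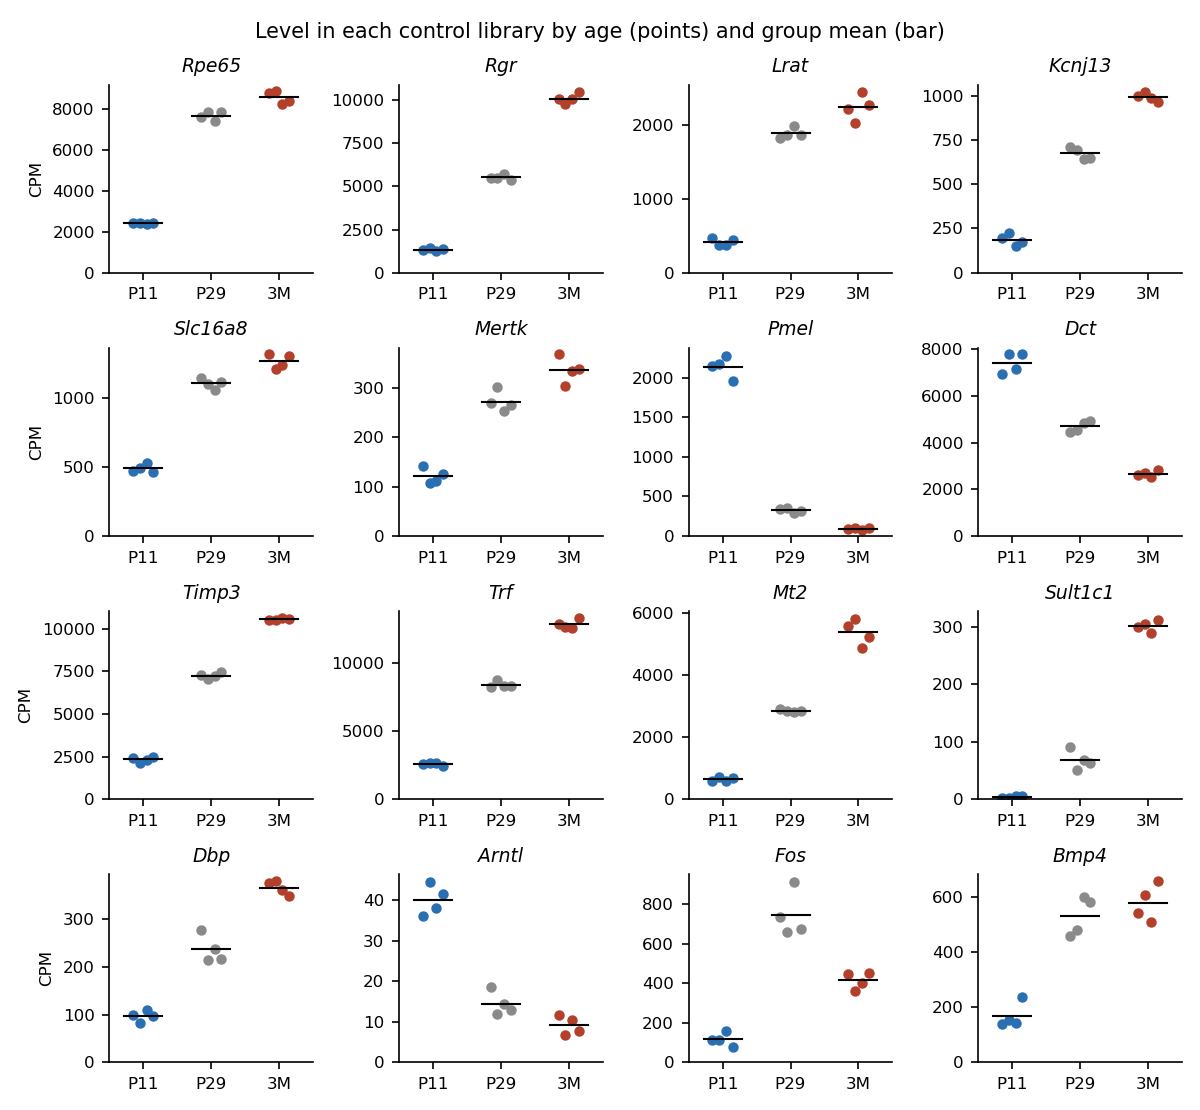
CPM of 16 genes in each of the 12 control libraries (points) with the group mean (bar), at P11, P29 and 3M from left to right, each axis starting at 0. Rpe65, Lrat, Kcnj13 and Timp3 are higher at 3M than at P11, Pmel and Dct are lower, and Fos has its highest libraries at P29.

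Of 20 tested transporters and channels of the epithelium, from a list of 22, 14 rose, 4 fell and 2 did not pass, with a median of 0.77. The inwardly rectifying potassium channel Kcnj13, which sits in the apical membrane of the RPE, had 997, 1020.3, 985 and 967 CPM at 3M, against 194, 224, 149 and 173 CPM at P11, a 5.36-fold rise (log2 fold change 2.42, SE 0.08, edgeR adjusted p = 7.5e-48). The basolateral lactate transporter Slc16a8 had 1320, 1206, 1240 and 1302 CPM at 3M and 468, 495, 525 and 466 CPM at P11. Its apical counterpart Slc16a1 had 1475, 1271, 1383 and 1336 CPM at 3M and 867, 839.8, 855 and 819 CPM at P11. Both lactate transporters rose without overlap, Slc16a8 by 1.38 (SE 0.07) and Slc16a1 by 0.69 (SE 0.06) on the log2 scale. The cation channel gene Trpm3 rose 3.52-fold. Among the members that fell were the water channel Aqp1, the cytosolic carbonic anhydrase Car2 and the lactate exporter Slc16a3. Aqp1 had 9.68, 14.5, 13.1 and 14.95 CPM at 3M and 53.1, 40.3, 39.9 and 72.3 CPM at P11, and Car2 had 13.04, 16.7, 12.6 and 5.25 CPM at 3M and 71.2, 66.8, 80.4 and 66.9 CPM at P11. Slc16a3 was near the detection floor, with 0, 1.35, 2.18 and 0 CPM at 3M and 0.668, 3.01, 7.59 and 7.44 CPM at P11 (log2 fold change -2.32, edgeR adjusted p = 0.027). Its call was lost without 3M replicate 1 (-1.92), 3M replicate 4 (-1.91), P11 replicate 3 (-1.98) or P11 replicate 4 (-1.97), and its value was -3.24 without 3M replicate 3 and had an adjusted p of 0.060 with voom quality weights. Aqp1 and Car2 are also made by cells outside the RPE, including erythrocytes, whose markers were lower at 3M as given above, and the part of those cells was not tested.

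Pigment genes divided. Of 13 tested melanin and melanosome genes, 5 rose and 6 fell, with a median of 0.11. Tyrosinase (Tyr), the rate-limiting enzyme of melanin synthesis, had 173, 165, 173 and 139 CPM at 3M and 182, 137, 125 and 157 CPM at P11, and its difference did not pass (edgeR adjusted p = 0.50). Pmel, which forms the fibrils on which melanin is laid down in the young melanosome, had 85.0, 104, 77.6 and 99.8 CPM at 3M, against 2147, 2179.5, 2272 and 1959.5 CPM at P11. That was a 23.4-fold fall with no overlap (log2 fold change -4.55, SE 0.09, edgeR adjusted p = 4.3e-62). The melanin enzymes Dct and Tyrp1 fell as well: Dct had 2607, 2703, 2520.1 and 2834 CPM at 3M and 6948, 7796, 7167 and 7807 CPM at P11, and Tyrp1 had 143, 136, 140.3 and 124 CPM at 3M and 473, 456, 487 and 451 CPM at P11. Mlana, a protein of early melanosomes, also fell (log2 fold change -1.41, SE 0.16), as did Gpnmb (-0.85, SE 0.08) and the transporter Slc45a2 (-0.95, SE 0.27). Slc45a2 lost its call without P11 replicate 3 (-0.64). Among the genes that rose, Rab27a, which tethers melanosomes to the motor that moves them, rose by 1.14 (SE 0.12) and Bloc1s1, a subunit of a complex that builds melanosomes, by 1.06 (SE 0.12). Exons of Bloc1s1 overlap those of Rdh5 on the same strand. Rdh5 rose as given above, and the part of its reads in the value of Bloc1s1 was not tested. The ion transport genes Oca2 and Slc24a5 rose by 0.77 (SE 0.17) and 0.52 (SE 0.09), and the melanosomal receptor Gpr143 by 0.67 (SE 0.29). Gpr143 had overlapping groups and lost its call without 3M replicate 3 (0.65) or 4 (0.47), or P11 replicate 1 (0.59), 3 (0.63) or 4 (0.48), and in DESeq2 (0.61), with RLE size factors (0.61), with a stricter filter (0.66), with only the 8 libraries (0.63) and with voom quality weights (0.77). Markers of choroidal melanocytes, a list that shares pigment genes with this one, summed to 2926 to 3212 CPM at 3M and 7377 to 8236 CPM at P11, and the part of those cells was not tested.

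Mertk and an integrin chain that act in the uptake of shed outer segments rose, while other members of the phagocytosis list fell. Of 17 members, all tested, 7 rose and 6 fell, with a median of 0.29. Mertk, the receptor kinase that triggers ingestion, had 369, 304, 335 and 339 CPM at 3M, against 142, 106, 112 and 125 CPM at P11, a 2.76-fold rise (log2 fold change 1.46, SE 0.11, edgeR adjusted p = 1.4e-22). Of the binding integrin alpha-v beta-5, the alpha chain Itgav had 339.98, 326, 329 and 360.1 CPM at 3M and 193, 149, 218 and 139 CPM at P11. Its beta chain Itgb5 had 121, 56.9, 92.0 and 85.3 CPM at 3M and 84.2, 56.5, 84.8 and 54.2 CPM at P11. The alpha chain rose without overlap (log2 fold change 0.95, SE 0.10), while the beta chain did not pass with all libraries (edgeR adjusted p = 0.10) and passed without 3M replicate 2 (0.50), P11 replicate 1 (0.45) or P11 replicate 3 (0.43). Tub, which bridges outer segments to Mertk, had 9.68, 6.77, 4.36 and 8.89 CPM at 3M and 73.9, 91.4, 67.1 and 63.2 CPM at P11, and the receptor kinase Axl had 11.8, 17.2, 19.2 and 17.4 CPM at 3M and 42.1, 55.3, 57.6 and 47.3 CPM at P11, both lower without overlap. Elmo1, an engulfment adaptor, averaged 0.860 CPM at 3M and 12.4 CPM at P11 (log2 fold change -3.77, and -4.70 without 3M replicate 3). Tub and Axl are also active in neurons or vessels, whose markers fell as given above.

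The lysosome, where ingested outer segments are broken down, had 12 of 22 tested members higher and 2 lower, with a median of 0.37. Cathepsin D (Ctsd), the main protease for opsin, had 3999.9, 3439.9, 3625 and 3736 CPM at 3M, against 2419, 2706, 2617 and 2518 CPM at P11 (log2 fold change 0.53, SE 0.05, edgeR adjusted p = 5.9e-16). Prosaposin (Psap), which helps enzymes reach sphingolipids, had 2813, 2743, 2395 and 2392 CPM at 3M and 854, 999, 983 and 1089.8 CPM at P11, a 2.64-fold rise. The membrane protein Cd63 rose 2.31-fold, the sterol carrier Npc2 2.09-fold and cathepsin B (Ctsb) 1.76-fold, all without overlap. Npc1, the membrane partner of Npc2 in sterol export, fell, with 42.9, 49.2, 38.4 and 39.6 CPM at 3M and 79.2, 43.9, 72.1 and 71.2 CPM at P11 and overlapping groups.

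**Figure D4:**
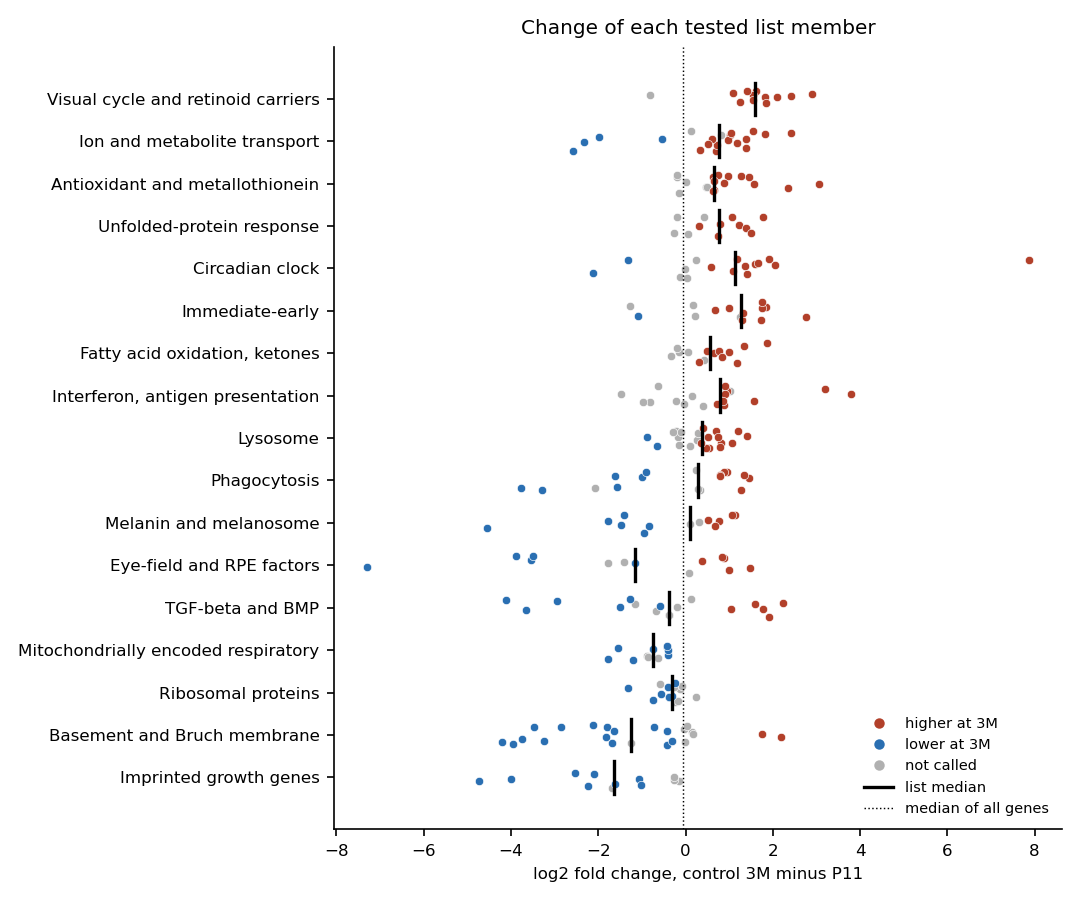
Log2 fold change, control 3M minus P11 (horizontal), of each tested member (points, coloured by the edgeR call) of 17 gene lists, with the list median (bar) and the median of all genes (dotted). The visual cycle has 11 of 12 points coloured as higher, while basement membrane and imprinted growth genes lie mostly below 0.

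Genes of the basement membrane and Bruch's membrane fell in 15 of 23 tested members and rose in 2, with a median of -1.25. The type IV collagen chains Col4a1 and Col4a2, which are transcribed from opposite strands of 1 locus, had 13.5, 10.4, 25.3 and 14.5 CPM and 20.2, 18.97, 10.9 and 12.9 CPM at 3M, against 134, 161, 165 and 143 CPM and 113, 106, 118 and 117 CPM at P11. Both fell without overlap, Col4a1 9.43-fold and Col4a2 7.21-fold. Elastin (Eln), the core of the middle layer of Bruch's membrane, had 10.9, 5.42, 20.9 and 8.49 CPM at 3M, against 184, 199, 171 and 163 CPM at P11, a 15.6-fold fall (log2 fold change -3.96, SE 0.22, edgeR adjusted p = 4.8e-30). The matrix glycoprotein Sparc fell 3.12-fold. The summed level of the list was higher at 3M, 17097 to 17607 CPM, than at P11, 10144 to 10533 CPM. The risers were Timp3, the metalloproteinase inhibitor held in Bruch's membrane, and Col8a2, a short-chain collagen. Timp3 had 10514, 10517, 10616 and 10568 CPM at 3M, against 2391, 2149, 2313 and 2459 CPM at P11, a 4.53-fold rise, and Col8a2 rose 3.37-fold to 1438 ± 87.7 CPM at 3M, against 427 ± 21.2 CPM at P11 (SD, n = 4). Fibroblast and endothelial markers, whose cells also make type IV collagen and elastin, were lower at 3M as given above, and their part was not tested. Without 3M replicate 3 the median of the list was -0.93 and 14 members were lower.

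Junction and keratin genes were mixed, with 7 of 19 tested members higher and 6 lower. Ezrin (Ezr), which links apical microvilli to actin, had 1452, 1296, 1363 and 1351 CPM at 3M and 522, 552, 609 and 537 CPM at P11, and the tight junction claudin Cldn1 had 542, 563, 521 and 591 CPM at 3M and 281, 334, 325 and 258 CPM at P11, both higher without overlap. The gap junction protein Gja1 had 245, 236, 277 and 263 CPM at 3M and 481, 546, 592 and 379 CPM at P11 and was lower without overlap. The first cadherins of the list, Cdh1 and Cdh2, were low at both ages: Cdh1 averaged 0.529 CPM at 3M and 6.63 CPM at P11 (log2 fold change -3.51, and -4.32 without 3M replicate 3), and Cdh2 15.5 CPM at 3M and 32.7 CPM at P11.

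Genes of defence against oxidative damage rose in 12 of 18 members, all tested, and fell in 0, with a median of 0.65. The metallothioneins, small metal-binding proteins, rose most: Mt1 had 9527, 9295, 8821 and 9379.9 CPM at 3M, against 1765, 1956, 1921 and 1625 CPM at P11, and Mt2 had 5584, 5796, 4876 and 5219 CPM at 3M, against 595, 703, 595 and 674 CPM at P11. The folds were 5.10 for Mt1 and 8.37 for Mt2 (edgeR adjusted p = 5.1e-57 and 5.1e-57), and the reads of these similar genes may be partly shared. The peroxiredoxin Prdx6 rose 2.73-fold, and Nfe2l2, the transcription factor NRF2 that drives many antioxidant genes, rose 1.55-fold. Its target Hmox1, heme oxygenase 1, had 5.89, 2.71, 6.10 and 4.04 CPM at 3M and 1.67, 2.41, 7.59 and 9.56 CPM at P11 and did not pass (edgeR adjusted p = 0.88).

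In the iron list 3 of 9 tested members rose and 1 fell, beside 20% and 23.7% of all genes. Transferrin (Trf), the iron carrier that the RPE secretes, had 12864, 12610, 12548 and 13251 CPM at 3M, against 2586, 2680, 2678 and 2401 CPM at P11, a 4.96-fold rise (log2 fold change 2.31, SE 0.04, edgeR adjusted p = 1.4e-69). The ferritin chains that store iron rose less, Fth1 by 0.85 (SE 0.07) and Ftl1 by 0.59 (SE 0.08) on the log2 scale. The transferrin receptor Tfrc had 55.5, 48.8, 43.1 and 61.8 CPM at 3M and 43.8, 31.3, 47.5 and 38.8 CPM at P11 and did not pass (edgeR adjusted p = 0.13). Ceruloplasmin (Cp), a ferroxidase needed for iron export, had 5.05, 4.52, 3.49 and 4.45 CPM at 3M and 26.1, 22.9, 35.4 and 25.5 CPM at P11, a 6.19-fold fall with no overlap.

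Protein folding genes of the endoplasmic reticulum rose in 8 of 12 members, all tested, and fell in 0, with a median of 0.76. The chaperone Hspa5 had 1066, 996, 976 and 1045 CPM at 3M, against 573, 654, 528 and 625 CPM at P11 (log2 fold change 0.78, SE 0.07). Xbp1, a transcription factor of the unfolded-protein response, rose 2.35-fold, and Herpud1, which acts in the disposal of misfolded proteins, 3.42-fold. Of 8 heat shock genes 3 rose and 0 fell, beside 20% and 23.7% of all genes. The risers were the cytosolic chaperones Hsph1 and Hsp90aa1 and the mitochondrial co-chaperonin Hspe1.

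Of 14 tested genes of fatty acid oxidation and ketone synthesis 9 rose and 0 fell, with a median of 0.57. The carnitine transferase Cpt1a, which admits fatty acids to mitochondria, had 172, 173, 167 and 187 CPM at 3M and 130.01, 101, 144 and 120.1 CPM at P11, a rise of 0.50 on the log2 scale (SE 0.12). The dehydrogenase Acadl had 207, 213, 176 and 221 CPM at 3M and 71.5, 83.6, 115 and 92.5 CPM at P11, a 2.27-fold rise (log2 fold change 1.19, SE 0.13, edgeR adjusted p = 1.1e-13).

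Glycolysis genes split, with 6 of 16 higher and 4 lower. The lactate dehydrogenase chains went opposite ways: Ldha, the chain that favours lactate formation, had 92.6, 79.0, 81.1 and 90.5 CPM at 3M, against 267.4, 274, 269 and 278 CPM at P11, while Ldhb, the chain that favours lactate use, had 308, 272, 353 and 356 CPM at 3M, against 143, 137, 155 and 134 CPM at P11. Neither pair of groups overlapped, with a 3.17-fold fall of Ldha and a 2.27-fold rise of Ldhb. Aldolase A (Aldoa) rose 1.70-fold. Hexokinase 1 (Hk1) did not pass, at -0.16 (edgeR adjusted p = 0.22, and -0.26 and a call without P11 replicate 4), and hexokinase 2 (Hk2) rose, with 48.9 ± 3.01 CPM at 3M and 20.2 ± 8.26 CPM at P11 (SD, n = 4).

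Respiratory chain genes encoded in the nucleus were mixed, with 6 of 16 higher and 3 lower, among them the complex III core protein Uqcrc2 at 0.78 (SE 0.12). Those encoded in mitochondrial DNA fell in 8 of 11 tested members and rose in 0. The complex I subunit gene mt-Nd1 had 7075, 7522, 7021 and 7595 CPM at 3M, against 17101, 17463, 17568 and 15650 CPM at P11, and mt-Co1 of complex IV had 1618, 1528, 1627 and 1417 CPM at 3M, against 2625, 2466, 2667 and 2562 CPM at P11. Sterol and lipid synthesis genes had 4 of 20 tested members higher and 3 lower, beside 20% and 23.7% of all genes. The synthase Hmgcs1 fell (log2 fold change -0.57, SE 0.12), as did Cyp51 (-0.63, SE 0.20), whose call was lost without P11 replicate 4 (-0.39). The lipid carrier Apoe had 7619, 7126, 6452 and 6889 CPM at 3M, against 2785, 2740.2, 2648 and 2924 CPM at P11, a 2.53-fold rise, and Fdft1 rose by 1.01 (SE 0.24). Srebf1 and Fasn, of fatty acid synthesis, had 0.62 (SE 0.20) and 0.54 (SE 0.20). Srebf1 lost its call without P11 replicate 4 (0.44), and Fasn without 3M replicate 3 (0.48) or P11 replicate 1 (0.39), in DESeq2 (0.48) and with only the 8 libraries (0.50).

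Clock genes made up a further list with most members higher. The circadian clock is a loop in which ARNTL (BMAL1) and CLOCK drive the genes of their own repressors through the sequence CACGTG. Of 16 tested members of 17, 10 rose and 2 fell, with a median of 1.13. The window upstream of Ciart, a repressor of the loop on chromosome 3 from 95878503 to 95882251 on the minus strand, is shown because this gene had the largest rise of the list and its 250 bases hold CACGTG 3 times, in capitals.
Ciart, chr3:95882229-95882478, minus strand: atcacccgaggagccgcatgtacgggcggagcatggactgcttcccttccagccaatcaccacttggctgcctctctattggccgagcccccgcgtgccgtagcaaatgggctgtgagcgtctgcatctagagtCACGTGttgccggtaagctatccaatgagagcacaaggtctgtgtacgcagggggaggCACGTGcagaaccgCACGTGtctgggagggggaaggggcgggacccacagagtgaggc

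The matches began 116, 58 and 44 bases before the RefSeq gene start in GRCm38. Promoter windows were found for 15 of the 17 listed genes, and CACGTG in 5 of them, Bhlhe41, Ciart, Cry1, Per1 and Tef, against 6.02% of all 32851 windows. These 5 include Cry1, which fell. Ciart had 59.8, 83.6, 82.8 and 57.4 CPM at 3M, against 0, 0, 1.27 and 0 CPM at P11, which rest on 659 and 2 counts, a ratio of 286 with a 95% exact binomial interval for counting error of 78.8 to 2364. Its P29 mean was 15.1 CPM. Dbp, an output factor of the clock, had 377, 379, 360.4 and 348 CPM at 3M and 99.3, 82.4, 109 and 97.2 CPM at P11, and the repressor Bhlhe40 had 134, 172, 126 and 145 CPM at 3M and 41.1, 29.5, 44.3 and 23.4 CPM at P11. Both rose without overlap, by 1.91 (SE 0.10) and 2.05 (SE 0.16). In the positive limb, Arntl had 11.8, 6.77, 10.5 and 7.68 CPM at 3M, against 36.1, 44.5, 37.97 and 41.4 CPM at P11, a 4.33-fold fall (edgeR adjusted p = 1.3e-09), while Clock had 103, 82.2, 80.2 and 68.7 CPM at 3M and 89.2, 65.6, 101 and 109 CPM at P11 and did not pass (edgeR adjusted p = 0.51). Cry1, a repressor, fell (log2 fold change -1.32, SE 0.31). The time of day at collection is not given in the labels, and age and time of day cannot be told apart for these genes.

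Immediate early genes, which are switched on within minutes of a stimulus to a cell, rose in 9 of 14 members, all tested, and fell in 1, with a median of 1.27. Fos had 447, 363, 403 and 453 CPM at 3M, against 116, 111, 159 and 80.2 CPM at P11, a 3.59-fold rise (log2 fold change 1.85, SE 0.16, edgeR adjusted p = 1.5e-09). Egr1 had 602, 591, 580.1 and 608 CPM at 3M and 161, 165, 197 and 190.2 CPM at P11, and Jun had 374, 387, 385 and 340.3 CPM at 3M and 171, 135, 129.7 and 167 CPM at P11, both higher without overlap. Fosb had 148, 122, 120.3 and 127 CPM at 3M and 124, 99.3, 102 and 115 CPM at P11 and did not pass with all libraries (log2 fold change 0.23, edgeR adjusted p = 0.096), though it did without P11 replicate 1 (0.29). The member that fell was Nr4a2, at -1.09 (SE 0.23). At P29 the means of Fos, Egr1, Jun and Fosb were 744, 907, 616 and 528 CPM, each above the means of both other ages. These genes also respond to tissue handling, whose part was not tested.

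In the TGF-beta and BMP list of developmental signals, 5 of 18 members rose and 6 fell, beside 20% and 23.7% of all genes. The ligands Bmp4 and Bmp2 had 543, 607, 509.5 and 658 CPM and 175, 161, 157 and 176 CPM at 3M, against 140.04, 155, 143 and 236 CPM and 63.8, 46.3, 45.6 and 62.2 CPM at P11, rises of 3.44-fold and 3.03-fold with no overlap. The ligand Bmp7 rose by 1.03 (SE 0.18) and the BMP antagonist Nog by 1.91 (SE 0.20). Tgfb2, the main TGF-beta ligand of the eye, had 8.84, 5.87, 5.67 and 7.68 CPM at 3M, against 108, 90.2, 68.3 and 89.3 CPM at P11, a 12.6-fold fall, and Id4, a gene induced by BMP in many cells, fell 17.4-fold.

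In the Wnt list 3 of 14 tested members rose and 5 fell, beside 20% and 23.7% of all genes. The receptor Fzd4 had 523, 501, 485 and 512 CPM at 3M and 195, 191, 204 and 188 CPM at P11, and the secreted inhibitor Sfrp5 had 177, 148, 129.9 and 155 CPM at 3M and 69.5, 74.6, 51.3 and 72.3 CPM at P11, both higher without overlap. Dkk3 had 30.3, 31.2, 52.3 and 57.8 CPM at 3M and 134, 119, 108 and 112 CPM at P11 and fell. Of 8 vascular factors 2 rose and 2 fell, beside the same shares of all genes. Vegfa, which maintains the fenestrated choriocapillaris, had 347, 280.03, 331 and 312 CPM at 3M, against 118, 152, 142 and 124 CPM at P11, a 2.38-fold rise (log2 fold change 1.25, SE 0.10, edgeR adjusted p = 1.0e-19), and Vegfb rose 2.30-fold. Igf1 fell 8.15-fold and Angpt1 3.499-fold. Serpinf1, the antiangiogenic factor PEDF, had 22.3, 22.6, 23.5 and 20.2 CPM at 3M and 25.4, 22.9, 22.1 and 42.5 CPM at P11 and did not pass (edgeR adjusted p = 0.30).

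Transcription factors of the RPE and of the eye field were mixed, with 5 of 13 tested members higher and 5 lower. Otx2, which drives many RPE genes, had 1413, 1304, 1402 and 1468 CPM at 3M, against 769, 772, 709.98 and 766 CPM at P11 (log2 fold change 0.89, SE 0.06, edgeR adjusted p = 2.9e-23). Mitf, the master regulator of pigment cells, had 167, 155, 157 and 158 CPM at 3M and 109.6, 109, 144 and 129 CPM at P11, a rise of 0.38 (SE 0.12). Sox9, which acts with these factors on visual cycle genes, had 783, 781, 733 and 778 CPM at 3M and 256, 312, 263 and 277 CPM at P11, a 2.78-fold rise. Lhx2 and Six3 rose 1.98-fold and 1.79-fold. The factors that fell included those of neural retina and its progenitors: Crx, a photoreceptor factor, had 15.6, 27.6, 29.2 and 27.1 CPM at 3M and 271, 297, 269.6 and 279 CPM at P11, Rax had 7.99, 3.61, 2.62 and 4.85 CPM at 3M and 52.5, 71.0, 72.8 and 90.3 CPM at P11, and Pax6 had 3.37, 3.16, 9.15 and 4.04 CPM at 3M and 44.5, 62.0, 69.6 and 57.9 CPM at P11. Six6 had 1 count at 3M and 203 at P11, and Meis1 fell (log2 fold change -1.16, SE 0.20). Crx, Rax, Pax6 and Six6 are active in the retina, whose neuronal and photoreceptor markers were lower at 3M as given above, and the part of those cells was not tested.

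Imprinted growth genes, a network that is active in fetal tissues and declines after birth, fell in 8 of 12 members, all tested, and rose in 0, with a median of -1.65. Meg3, a long noncoding RNA, had 26.1, 9.48, 27.9 and 30.3 CPM at 3M, against 588, 670.2, 564 and 715 CPM at P11, a 26.8-fold fall (log2 fold change -4.74, SE 0.16, edgeR adjusted p = 9.1e-24). H19 had 4.21, 0.452, 263 and 10.5 CPM at 3M and 391, 402, 337 and 482 CPM at P11, with 3M replicate 3, the library rich in collagen transcripts, far above the rest of its group. It had a log2 change of -2.54 (SE 0.85; edgeR adjusted p = 0.021) with all libraries and -6.26 without that library, and the call was lost without 3M replicate 1 (-2.15) or 4 (-2.18) and with only the 8 libraries (-2.57). Igf2 had 9.26, 4.52, 16.1 and 7.68 CPM at 3M and 22.1, 22.3, 19.6 and 14.3 CPM at P11, and its call (log2 fold change -1.06, edgeR adjusted p = 0.038) was lost without 3M replicate 1 (-1.05), 2 (-0.83) or 4 (-0.97), or P11 replicate 1 (-0.99), 2 (-0.99) or 3 (-1.06), and with no filter on low counts (-1.03). The cell cycle inhibitor Cdkn1c fell 3.06-fold and Peg3 2.03-fold. Without 3M replicate 3 the median of the list was -2.07 and 9 members were lower.

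Of 22 cell cycle genes 15 were tested, 2 rose and 4 fell, beside 20% and 23.7% of all genes. The cyclins went opposite ways, with Ccnd1 at 810.4, 739, 723 and 682 CPM at 3M and 277, 287, 292 and 269.9 CPM at P11, and Ccnd2 at 98.0, 103, 136 and 77.6 CPM at 3M and 355, 407, 384 and 454 CPM at P11, neither with overlap. The proliferation marker Mki67 had 0, 0, 5.23 and 0 CPM at 3M and 6.35, 3.61, 13.3 and 5.31 CPM at P11 (log2 fold change -2.41, edgeR adjusted p = 0.032). Its call was lost without 3M replicate 1, 2 (-2.01) or 4 (-1.99) or P11 replicate 3 (-1.94), and its value was -7.05 without 3M replicate 3, where no 3M count was left and the fitted value depends on the prior count. The topoisomerase Top2a had 10.1, 4.07, 0 and 2.42 CPM at 3M and 15.4, 40.3, 13.9 and 21.8 CPM at P11 (log2 fold change -2.44, and -3.37 without 3M replicate 1), and Stmn1 fell (log2 fold change -2.16, SE 0.54). The kinase gene Cdk1 had 39.6, 26.6, 26.6 and 18.6 CPM at 3M and 9.69, 9.63, 15.8 and 17.002 CPM at P11 and rose (edgeR adjusted p = 0.0046).

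Interferon and antigen presentation genes rose in 9 of 18 members, all tested, and fell in 0, with a median of 0.80. Beta-2 microglobulin (B2m), the common chain of class I molecules, had 878, 869, 752 and 925 CPM at 3M, against 475, 493, 467 and 409 CPM at P11 (log2 fold change 0.89, SE 0.07). The interferon-induced gene Ifi27 had 157, 158, 113 and 179 CPM at 3M, against 13.7, 18.05, 19.6 and 15.4 CPM at P11, a 9.24-fold rise, and Ifit1 had 15.99, 11.3, 14.4 and 4.85 CPM at 3M and 2.34, 0, 0 and 0 CPM at P11 (log2 fold change 3.78, and 7.74 without P11 replicate 1, where no P11 count was left and the fitted value depends on the prior count). Complement genes had 3 of 11 tested members higher and 5 lower. The membrane inhibitor Cd59a had 42.5, 51.5, 51.0 and 52.1 CPM at 3M and 13.7, 21.1, 15.8 and 17.002 CPM at P11, higher without overlap. C1ra averaged 12.9 CPM at 3M and 2.12 CPM at P11 (log2 fold change 2.42, and 3.22 without P11 replicate 1). C1qc, a chain of C1q made mostly by macrophages and microglia, had 7.57, 12.6, 6.54 and 5.25 CPM at 3M and 45.8, 29.5, 22.8 and 23.9 CPM at P11 and fell with C1qa and C1qb. C4b, at -2.06, lost its call without P11 replicate 4 (-1.50) and had an adjusted p of 0.20 with voom quality weights.

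Of 24 intraflagellar transport genes, all tested, 4 rose and 2 fell, beside 20% and 23.7% of all genes, with a median of -0.25. The counts were 5 higher and 3 lower without 3M replicate 3 and 3 higher and 5 lower with RLE size factors. Ift20, the gene targeted in the mutants, had 118, 159.9, 126 and 133 CPM at 3M and 106, 93.8, 60.7 and 149.8 CPM at P11. Its groups overlapped and its call (log2 fold change 0.37, SE 0.15, edgeR adjusted p = 0.039) was lost without 3M replicate 2 (0.28) or 4 (0.38), or P11 replicate 1 (0.39), 2 (0.33) or 3 (0.20), in DESeq2 (0.33), with RLE size factors (0.32) and with only the 8 libraries (0.35). Ift57 rose 2.30-fold and Ift52 1.83-fold without overlap, Wdr35 rose by 0.58 (SE 0.17), Ift81 fell 2.53-fold, and Ift22 had -0.79 on the log2 scale, a call lost without P11 replicate 2 (-0.70). Ribosomal protein genes fell in 8 of 15 members, all tested, and rose in 0, by small amounts: the median was -0.31, Rpl32 had -0.41 (SE 0.09) and Rpsa -0.75 (SE 0.13). The number lower depended on scaling, with 11 under RLE size factors and 6 with factors from genes outside the marker lists.

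The largest rises over all genes were mostly of transcripts near 0 at P11. Sult1c1, a sulfotransferase on chromosome 17 from 53961615 to 53990674 on the minus strand, had 300.4, 306, 289 and 312 CPM at 3M, against 1.67, 2.41, 5.70 and 4.78 CPM at P11, an 88.5-fold rise (log2 fold change 6.47, SE 0.20, edgeR adjusted p = 1.9e-51). Its P29 mean of 68.7 CPM lay between. The organic anion transporter Slco1b2 had 9.26, 12.2, 21.4 and 10.9 CPM at 3M and no count in any P11 library, which made it at least 36.1-fold higher over a floor of 3 counts for the group. By the same floor Rgs1, a regulator of G protein signalling, was at least 26.3-fold, the receptor Gpr139 at least 17.3-fold, Palm3 at least 14.2-fold and Erich5 at least 13.9-fold higher. The lysophosphatidic acid receptor Lpar3 had 73 counts at 3M and 1 at P11, and the kinase Glyctk 56 at 3M and 1 at P11, ratios of 63.3 (95% interval 11.0 to 2534) and 48.6 (8.37 to 1952), covering counting error only. The histone gene Hist1h3d had 77.8, 56.5, 66.2 and 46.5 CPM at 3M and 0, 4.21, 4.43 and 0 CPM at P11 (log2 fold change 5.06, and 4.46 to 5.74 without 1 of P11 replicates 1, 2 and 3). Tsix, transcribed across Xist on the opposite strand, had 27.8, 13.6, 23.97 and 21.4 CPM at 3M and 0, 1.80, 0.633 and 0 CPM at P11 (log2 fold change 5.26, and 6.68 without P11 replicate 2). Histone genes have near-identical copies, and the labels do not say whether strand was used in counting, so the reads of Hist1h3d, and those of Tsix and Xist, may be divided uncertainly. Exons of 65 of the 175 genes named overlap those of another gene, and for these the same holds.

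The 12 largest falls were taken among called genes with a named symbol whose ages did not overlap and whose mean reached 5 CPM at either age. Of these, Neurod4, Isl1 and Lhx4, transcription factors of retinal neurons, had no count in any 3M library and were at least 188-fold, 121-fold and 89.2-fold lower than at P11 over the floor of 3 counts. Neurod4 had 50.8, 58.4, 71.5 and 68.0 CPM in the P11 libraries. The neuronal genes Celf3, Cntn1, Camk2b and Eef1a2 were at least 164-fold, 94.6-fold, 83.8-fold and 68.8-fold lower, the neuropeptide gene Avp at least 125-fold, the lens crystallin gene Cryba1 at least 66.1-fold, and the endothelial genes Esam and Tie1 at least 107-fold and 68.4-fold. All 11 of these had no count at 3M, and the rule of no overlap then requires a count in each of the 4 P11 libraries. Most neuronal, lens and endothelial markers were lower at 3M as given above, and the part of those cells was not tested.

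The mutants offered the same age comparison in separate libraries, 4 at 3M and 4 at P11. There 2546 genes (20.7%) were higher and 2687 (21.8%) lower at 3M. In both genotypes 1875 genes were called higher, of 2459 in controls and 2546 in mutants, and 2073 were called lower, of 2911 in controls and 2687 in mutants. Of those higher in controls 9 were called lower in mutants, and of those lower in controls 13 were called higher. A test of the difference itself, the mutant change minus the control change, called 311 of 12303 genes (2.53%), 239 (1.94%) more positive and 72 (0.585%) more negative in mutants. The self-test, on simulated data with 200 changed genes, recovered fewer differences of this kind than changes in 1 genotype. It recovered 31.3% of simulated 2-fold differences, against 56.7% of simulated 2-fold changes in controls. Genes without a call are therefore not shown to change alike. The simulation changed 200 genes, whereas 5370 were called in the control data. Its adjusted threshold was thus stricter, and its rate for controls is not that of the data.

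Among the 5 smallest p-values of that difference, Fosb had a log2 change of 2.56 in mutants and 0.23 in controls (difference 2.33, SE 0.17, edgeR adjusted p = 8.1e-21). Klf4, a transcription factor of stress and epithelial programmes, had 1.85 in mutants and -0.12 in controls (difference 1.97, SE 0.20). Transferrin (Trf) rose in both, by 2.93 in mutants and 2.31 in controls. The myelin gene Mbp had 0.59 in mutants and -2.19 in controls, and the rod arrestin Sag had -2.06 in mutants and -2.83 in controls. In the visual cycle Rpe65 rose by 2.00 in mutants and 1.83 in controls, a difference of 0.17 (SE 0.06) that did not pass (edgeR adjusted p = 0.13), whereas that of Rgr, 0.25 (SE 0.06), did (edgeR adjusted p = 0.012). For 5 of the 6 melanin and melanosome genes that fell in controls, the fall was smaller in mutants. Dct had -1.08 in mutants and -1.48 in controls, and Tyrp1 -1.16 in mutants and -1.78 in controls (edgeR adjusted p of the difference = 2.0e-05 and 0.0013). Gpnmb had -0.32 in mutants and -0.85 in controls, Pmel -4.13 in mutants and -4.55 in controls, and Mlana -0.65 in mutants and -1.41 in controls (edgeR adjusted p of the difference = 0.0015, 0.033 and 0.041). The sixth, Slc45a2, had -0.92 in mutants and -0.95 in controls, a difference that did not pass (edgeR adjusted p = 0.99). Since Xist rose with age in mutants and fell in controls, genotype and sex makeup cannot be told apart in these differences.

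**Figure D5:**
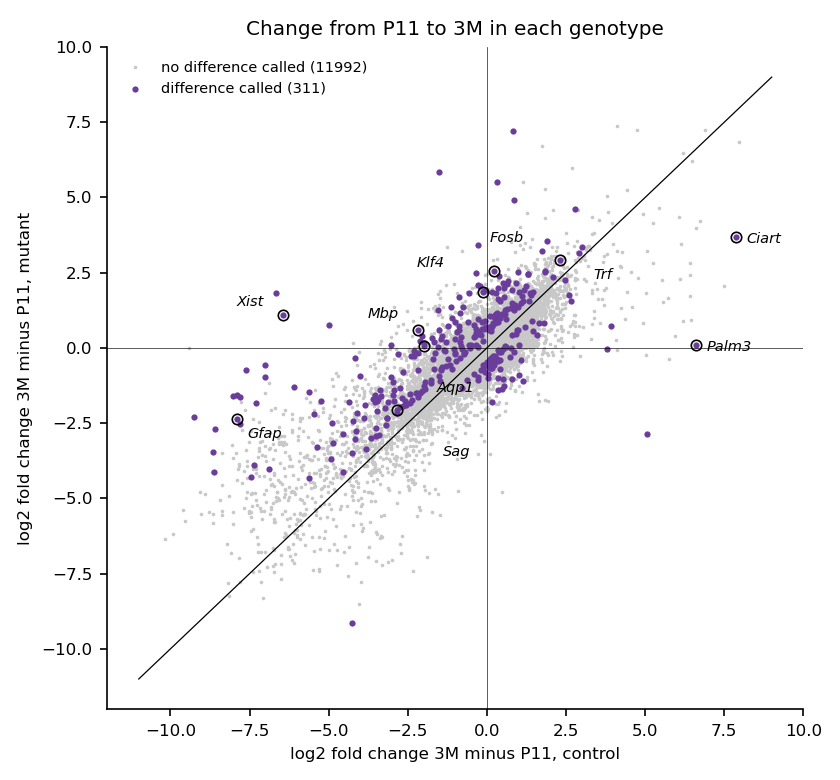
Log2 fold change from P11 to 3M in mutants (vertical) against controls (horizontal) for the 12303 tested genes, with the 311 genes whose difference was called in purple and the line of equal change. Fosb and Klf4 lie above the line near 0 in controls, Mbp, Aqp1 and Gfap lie above it among genes that fell in controls, and Ciart and Palm3 lie below it.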

How the data were processed

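Libraries were made from 100 ng of total RNA with a QuantSeq 3′ mRNA-Seq kit and sequenced in single-end mode, per the labels' protocols. The authors deposited raw counts of reads per gene. The submitters' processing notes name STAR and mm10; versions, the counter, the annotation and strand use were not given in the sources used here. The 5 summary rows of each file were left out of library sizes and tests: reads in no feature were 18.9% to 24.1% and those aligned at several places 32.6% to 37.2% of entries in the 8 libraries.

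Counts were fitted with edgeR 4.0.16 (R 4.3.3; TMM scaling, filterByExpr, robust quasi-likelihood test) over all 24 libraries in 6 groups, which left 12303 genes, with Benjamini-Hochberg adjustment over all of them and a threshold of 0.05. Standard errors were derived from each fold change and its F statistic. DESeq2 1.42.0 and limma 3.58.1 (voom) served as alternatives, with other filters, scalings and left-out libraries. The procedure was tested on simulated data with 200 changed genes. Floors of 3 counts and 95% intervals cover counting error only. Gene positions are those of GRCm38, and promoter sequences are from RefSeq.

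Named genes were the 12 largest rises and 12 largest falls among called genes of at least 5 CPM in 1 group with no overlap, the first 2 tested genes of each of 48 lists with up to 3 called members of smallest p, and the 5 smallest p for the difference between genotypes. Other names were chosen after their values were seen, and some genes under the rule are not reported here. The members and lists were chosen with earlier results of these data known. No 2 libraries of 1 group agreed within sampling noise (chi-square per gene of 3.03 to 7.36 over 36 pairs in 6 groups).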

Additional observations from a re-analysis of the deposited data

Results flagged for a closer look

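Of 413 sets of 4 libraries examined, 21 held a library whose gap to its nearest neighbour exceeded Dixon's 95% critical share of the whole range, and chance gives about 1 in 20 such sets. In control 3M replicate 1 the values so set apart were 52.6 CPM of Fdft1, 15.6 CPM of Crx, 42.5 CPM of Cd59a and 2144 CPM summed over phagocytosis genes. In control 3M replicate 2 the value so set apart was 106 CPM summed over cone markers. In control 3M replicate 3 the values so set apart were 4966 CPM of Rdh5, 733 CPM of Sox9, 263 CPM of H19, 366 CPM of Col1a2, 97.2 CPM of Col3a1, 713 CPM summed over imprinted growth genes and 1358 CPM summed over fibroblast markers. In control 3M replicate 4 the values so set apart were 10.1 CPM of Glyctk, 1737 CPM summed over Wnt genes and 67.9 CPM summed over myelin markers. In control P11 replicate 1 the value so set apart was 52.5 CPM of Nr4a2. In control P11 replicate 3 the value so set apart was 710.0 CPM of Otx2. In control P11 replicate 4 the values so set apart were 29.8 CPM of Srebf1, 236 CPM of Bmp4, 42.5 CPM of Serpinf1 and 369.8 CPM summed over lens genes.

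For 36 of 175 named genes the change from P11 to 3M differed between mutants and controls in the interaction test of edgeR (adjusted p under 0.05), each value being the mutant change minus the control change on the log2 scale. The difference was over 1 for Mbp (2.78), Fosb (2.33), Nr4a2 (2.10), Aqp1 (2.04), Klf4 (1.97), Nog (1.64), Rax (1.56), Jun (1.15) and Guca1b (1.12). It was smaller for Crx (0.82), Ccnd2 (0.82), Sag (0.77), Mlana (0.76), Cryab (0.76), Trf (0.62), Tyrp1 (0.62), B2m (0.53), Gpnmb (0.53), Fzd4 (0.45), Npc2 (0.43), Pmel (0.42), Sox9 (0.40), Dct (0.39), Ftl1 (0.37), Psap (0.37), Rdh5 (0.27), Rgr (0.25) and Apoe (0.23). The change was more negative in mutants for Hspa5 (-0.35) and Ddx3y (-1.48). Genes with at most 3 counts in a control group had fitted differences that depend on the prior count, which were Esam (6.97), Gfap (5.51), Tie1 (5.201), Ciart (-4.19) and Palm3 (-6.49). That of Xist (7.56) depends on 3M replicate 3, which held all 11 of its control counts at 3M. Its change in controls was -6.46 with all libraries and -10.97 without that library, where no 3M count was left. No explanation was weighed for these differences, and sex makeup and genotype cannot be told apart in them.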

How the results depend on the processing

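No named gene called in controls changed sign under any setting that gave it a value. Of those without a call, Hmox1 (-0.15) lay between -0.48 and 0.33 over the settings and Klf4 was 0.0085 without P11 replicate 2. Of 175 named genes, the number that lost their call was 3 in DESeq2 (174 with a value), 2 with RLE size factors, 3 with voom quality weights, 5 with only the 8 libraries compared (166 with a value), 1 with a stricter filter, 1 with no filter on low counts and 28 in a test against a 1.5-fold change, and leaving out a library ended 33 calls, added 5 and left 1362 results on their side of the threshold. Scaling factors from genes outside the marker lists changed none. The count of genes higher at 3M was 1174 in the test against a 1.5-fold change, in place of 2459, and was 2284 to 2396 when a library was left out, with 2680 to 2777 lower. The genotype difference had 115 genes more negative in mutants in DESeq2, in place of 72, and 44 more positive and 6 more negative against a 1.5-fold change. When a library was left out it had 186 to 240 more positive and 50 to 94 more negative. No filter on low counts gave 2522 higher and 3009 lower over 19634 genes, and the 8 libraries alone 1945 and 2280 over 10841 genes. The fit to the 8 libraries does not share its estimate of spread with the other groups. The common coefficient of variation between libraries was 32.7% in control P11 and 14.9% to 22.3% in the other groups. The part of this in the counts was not tested. RLE size factors moved the median of all genes by -0.05 and the counts to 2273 higher and 3085 lower.

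Without 3M replicate 3, an alternative chosen after the data were seen, the median change was 0.69 for transport genes, in place of 0.77, -0.93 for basement membrane genes, in place of -1.25, and -2.07 for imprinted genes, in place of -1.65. Taken as differences of medians, 3M minus P11, the percentages changed by -2.79 (mitochondrial), -4.05 (no feature), 0.0886 (ambiguous), -3.33 (aligned at several places) and -3.99 (10 most counted genes), each with an exact permutation p of 0.067 adjusted over 7 measures. Leave-one-out ranges of the differences in means were -3.15 to -2.65, -4.32 to -3.85, 0.0877 to 0.0929, -3.66 to -3.19 and -4.24 to -3.74 in that order. Total gene counts differed by 361100 to 819940, and passed (819940) without P11 replicate 1, and genes with a count by -733 to -502, passing without P11 replicate 2. With RLE size factors the members that fell were 4 lysosome genes, in place of 2, 1 antioxidant gene, in place of 0, and 2 endoplasmic reticulum folding genes, in place of 0. Ribosomal protein genes that fell were then 11, in place of 8, and respiratory genes of mitochondrial DNA 9, in place of 8. With scaling factors from genes outside the marker lists these were 6 and 7. Without 3M replicate 3, 1 of the folding genes and 2 iron genes fell, in place of 0 and 1. The causes were not tested.

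Replicate numbers did not pair the libraries: correlations of the deviations of same-numbered libraries ran from -0.03 to -0.001 over 4 pairs. With the replicate number as a block, 2462 genes were higher and 2838 lower, and 232 and 68 differed between genotypes. At 1513440 to 2889946 counts a library, simulated 1.5-fold changes were recovered in 28.4% and 4-fold changes in 87.9% of genes, so smaller changes and genes near the floor of 3 counts are seen least. With 200 genes changed in the simulation and 5370 called in the control data, these rates do not give the recovery in the data.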

Other observations

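Genes outside the lists, chosen after their values were seen, also differed between ages in controls, in edgeR with the adjustment over all genes. Ptgds, the lipocalin-type prostaglandin D synthase, averaged 43933 ± 3408 CPM at 3M and 5515 ± 389 CPM at P11 (SD, n = 4), a log2 fold change of 2.99 (SE 0.05). Enpp2, the lysophospholipase autotaxin, averaged 7744 ± 37.0 CPM at 3M and 1408 ± 80.0 CPM at P11. Bdnf, a neurotrophin, averaged 52.3 ± 5.25 CPM at 3M and 7.38 ± 1.27 CPM at P11, and Cyp27a1, a mitochondrial sterol hydroxylase, averaged 44.7 ± 8.99 CPM at 3M and 1.99 ± 1.48 CPM at P11. The thyrotropin receptor Tshr rose 3.04-fold and the thyroid hormone transporter Slco1c1 3.77-fold.

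Histone genes with symbols starting in Hist were taken as a set after their values were seen. Of 16 tested, 12 were higher and 2 lower at 3M, beside 20% and 23.7% of all genes. Some had few counts, among them Hist1h2ae with 23 at 3M and 0 at P11 and Hist1h1d with 69 and 3. The median log2 fold change of the 16 genes was 2.44. Most of them are expressed in S phase without a poly(A) tail. Their reads may be divided among near-identical copies. The cytokine genes Il1b and Cxcl2, also chosen after their values were seen, averaged 10.4 ± 2.80 and 6.67 ± 3.64 CPM at 3M, against 0.501 ± 1.00 and 0.664 ± 1.33 CPM at P11. The P11 means rest on 6 and 5 counts. At P29 Il1b averaged 11.6 CPM and Cxcl2 21.3 CPM, both above their 3M means.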
